A study of Mus musculus with 4 samples.

Results

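The 7 genes described here encode regulators of fat and sterol synthesis: Srebf1, Srebf2, Insig1, Insig2, Mlxipl, Thrsp and Nr1h3. They were chosen by symbol, as 7 of the 32285 genes in the feature table, and all 7 were found. SREBP proteins, made from Srebf1 and Srebf2, are membrane-bound precursors that SCAP escorts to the Golgi, where proteases release the part that enters the nucleus. INSIG proteins hold SCAP in the endoplasmic reticulum when sterols are plentiful. ChREBP (Mlxipl) turns on sugar-responsive and lipogenic genes with its partner MLX, and LXR-alpha (Nr1h3) responds to oxysterols with RXR. In fat cells these factors are known for setting fatty acid synthesis and cholesterol balance.

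The nuclei came from the buoyant, adipocyte-enriched fraction of digested tissue of wild-type (WT), naïve C57/BL6 mice on standard chow. One single-nucleus RNA library came from 6 pooled thymi of 4-month males, cleaned of the fat around them. A second came from epigonadal white fat, also of 4-month males, and the sources used here do not give the number of animals behind it. Chromatin accessibility came from 1 library of 16 pooled thymi of 6-month females, so age and sex differ between the RNA and the chromatin data. The thymic groups are pools, each group is 1 library, and no difference below was tested between animals.

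The authors labelled 365 of 22600 thymic barcodes and 1564 of 5043 epigonadal barcodes as adipocytes of 5 kinds: type I (Ad Ia, Ad Ib) and type II (Ad IIa to Ad IIc). The name Ad I is used for the sum of its 2 kinds. The authors' table classes all labelled nuclei as singlets, that is, not doublets. Levels are given as CPM, the UMIs (unique RNA molecules) of a gene per 1000000 nuclear-encoded UMIs of the summed nuclei, with exact Poisson 95% intervals. Ad I held 52241 such UMIs in thymus and 263848 in epigonadal fat, and Ad IIa held 401448 and 1237126. Every interval covers counting error only. A count of 0 was given a limit of 3 counts, which was 57.4 CPM in thymic Ad I and 7.5 CPM in thymic Ad IIa. The exact interval of a count of 0 reaches higher, to 70.6 and 9.19 CPM. Mitochondrial UMIs had a median of 69.3% in unlabelled thymic barcodes and 10.9% in unlabelled epigonadal ones, against 13.3 to 18.2% and 2.84 to 6.06% over the labels. The authors' own UMI total equalled the sum of the matrix used here in 101 of 365 labelled thymic nuclei and 789 of 1564 epigonadal ones, and the source of the difference in the others was not tested. The libraries shared 147 barcodes, of which 0 were labelled in both.

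The labels were set against marker genes of 6 cell types. All 9 adipocyte markers, among them Adipoq, Plin1 and Pparg, were detected in Ad I of both libraries, at a summed 7810 CPM in thymus and 9433 CPM in epigonadal fat. The 9 endothelial markers, among them Cdh5, Kdr and Flt1, summed to 1168 CPM in thymic and 1046 CPM in epigonadal Ad I. The parts of Ad I differed, with 36 CPM against 592 in Ad Ia and 2441 against 1588 in Ad Ib. Adipocyte markers were at 10376 CPM in Ad Ia of both libraries, and at 4922 against 8308 in Ad Ib. In Ad IIa the 9 endothelial markers were all detected, at a summed 8554 CPM in thymus and 6256 CPM in epigonadal fat. Adipocyte markers summed to 2837 and 7327 CPM there. Epigonadal Ad IIc had 26675 CPM of adipocyte and 384 CPM of endothelial markers, whereas thymic Ad IIc had 2340 and 7501 CPM. The label Ad IIc thus covered nuclei with different marker content between the libraries.

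Mlxipl stood out among the 7 genes for where its RNA was found. It encodes ChREBP, and the gene spans chr5:135089890-135139768 (RefSeq, GRCm38.p6, plus strand; ENSMUSG00000005373). In the thymic library it had 20 UMIs in Ad Ia (723 CPM, interval 442 to 1117) and 13 in Ad Ib (529 CPM, 282 to 904). The 3 type II labels each had 0, and the unlabelled barcodes had 245 (53.2 CPM). The epigonadal library had 44 in Ad Ia (306 CPM, 223 to 411) and 14 in Ad Ib (116 CPM, 63.6 to 195). There Ad IIa had 10 (8.1 CPM), Ad IIb had 1 (7.1 CPM), Ad IIc had 16 (31.0 CPM) and the unlabelled barcodes had 86 (22.8 CPM). Ad Ia and Ad Ib were thus the 2 highest labels in both libraries, and the thymic values lay above the epigonadal ones. The intervals of Ad Ia and Ad Ib overlapped in the thymus and did not in epigonadal fat.

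Over all Ad I nuclei, Mlxipl was at 632 CPM (435 to 887) in thymus and 219.8 CPM (167 to 284) in epigonadal fat. The log2 ratio, taken with 0.5 UMI added to each sum, was 1.53 (exact binomial 95% interval 0.86 to 2.16), a 2.89-fold difference. For Ad Ia alone the ratio was 1.26 (0.40 to 2.03), and for Ad Ib alone 2.19 (0.98 to 3.38). Scaling by TMM or by median of ratios lowered the median of all genes in Ad I by 0.34 on the log2 scale, and the Mlxipl ratio was then 1.19 or 1.2. Among nuclei with at least 1000 UMIs, 9 thymic and 79 epigonadal, the ratio was 0.90, under 2-fold. Beside this and the other Ad I differences, T-cell markers summed to 421 CPM in thymic and 64 CPM in epigonadal Ad I, macrophage markers to 191 and 709, and fibroblast markers to 172 and 569. The part of these in the results was not tested.

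Within the thymic library the contrast between labels was larger. With the 0 UMIs of Ad IIa counted as 3, Ad I was 6.40 above Ad IIa on the log2 scale, and the lower end of the exact interval was 6.02. In the epigonadal library the log2 ratio of Ad I over Ad IIa was 4.71 (3.78 to 5.90). Against unlabelled barcodes, Ad I was higher by 3.59 (3.0 to 4.10) in thymus and 3.28 (2.77 to 3.77) in epigonadal fat on the same scale. The unlabelled thymic barcodes were at 14.1 CPM where under 20% of UMIs were mitochondrial and at 67.2 CPM in the rest. The labels were made by the authors from these nuclei, so contrasts between labels are descriptions. The RNAs Malat1, Neat1 and Meg3 summed to 59455 CPM in thymic Ad I and 17823 in thymic Ad IIa. In epigonadal fat they summed to 42411 and 10402. Ribosomal-protein RNA summed to 14108 and 22581 CPM in thymus and to 20387 and 37875 in epigonadal fat. The part of these in the result was not tested.

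The share of nuclei with Mlxipl RNA was compared as well. At least 1 UMI was found in 15 of 35 thymic Ad Ia nuclei (42.9%, exact Clopper-Pearson interval 26.3 to 60.7%) and in 11 of 49 Ad Ib nuclei (22.4%, 11.8 to 36.6%). In epigonadal fat the counts were 29 of 106 (27.4%) and 14 of 152 (9.21%). In thymic Ad IIa it was 0 of 231 nuclei, at a median depth of 1696 UMIs against 604 in Ad Ia. The unlabelled barcodes, nuclei or debris of any cell type, had it in 1.03% in thymus (median 308 UMIs) and 2.04% in epigonadal fat (median 794 UMIs). After thinning each nucleus to 500 UMIs the share was 30.8% (14.3 to 51.8%) of 26 thymic and 7.55% (3.31 to 14.3%) of 106 epigonadal Ad Ia nuclei. The intervals met at 14.3%. For Ad Ib the share was 12.5% of 16 and 5.92% of 152, with overlapping intervals, and for unlabelled barcodes 1.44% and 1.09%. The thinning left out 9 shallower thymic and 0 epigonadal Ad Ia nuclei. It kept 16 of 49 thymic Ad Ib nuclei and 3877 of 22235 unlabelled thymic barcodes, but all 152 epigonadal Ad Ib nuclei and all 3479 unlabelled epigonadal barcodes. The thymic shares are thus those of the deeper nuclei and barcodes.

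**Figure D1:**
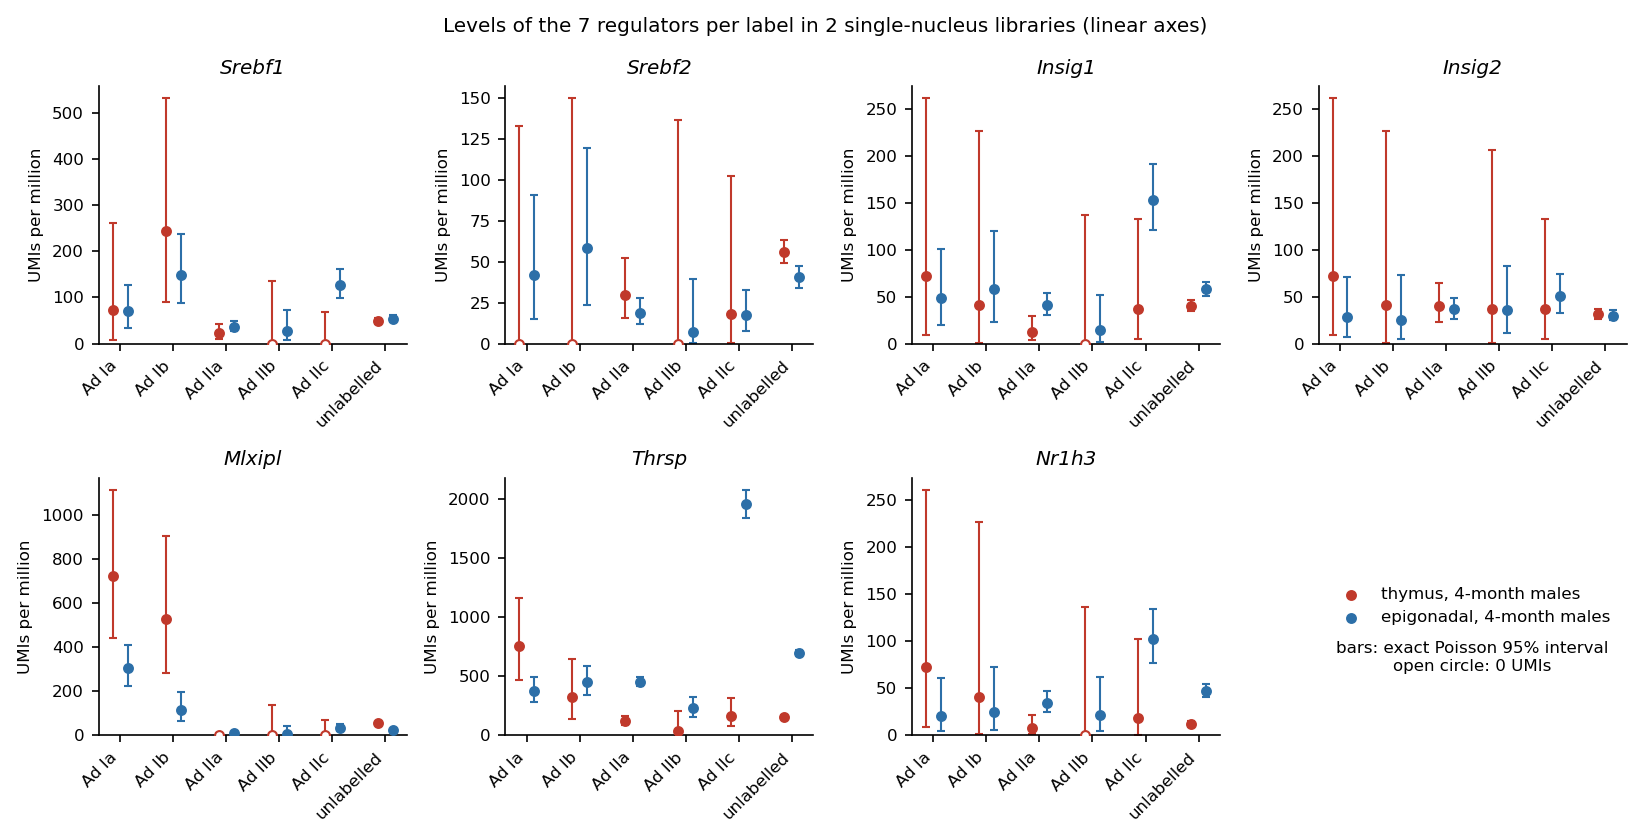
Levels of the 7 genes in UMIs per 1000000 (CPM; linear vertical axes) for each label and for unlabelled barcodes, in thymus (red) and epigonadal fat (blue). Points are sums over nuclei of 1 library, bars are exact Poisson 95% intervals and open circles mark 0 UMIs. Mlxipl is seen in Ad Ia and Ad Ib, and Thrsp reaches 1955 CPM in epigonadal Ad IIc.

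Mlxipl has 2 listed starts, 17001 bases apart, and both are shown because accessibility differed between them. In the literature an upstream first exon gives the shorter ChREBP-beta form, which lacks the glucose-sensing domain. The sequences below are the 250 bases before each start (RefSeq promoter table, GRCm38.p6, plus strand), at chr5:135089640-135089889 and chr5:135106641-135106890. Capitals mark matches on either strand to 3 motifs: the E-box CACGTG, the CCAAT box (ATTGG on the other strand) and the sterol response element TCACNCCAC.
Mlxipl upstream start: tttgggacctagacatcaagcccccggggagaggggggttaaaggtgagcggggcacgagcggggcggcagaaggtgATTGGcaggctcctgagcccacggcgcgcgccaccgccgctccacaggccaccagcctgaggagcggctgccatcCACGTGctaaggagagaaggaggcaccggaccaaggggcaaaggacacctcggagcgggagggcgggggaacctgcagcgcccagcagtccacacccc
Mlxipl downstream start: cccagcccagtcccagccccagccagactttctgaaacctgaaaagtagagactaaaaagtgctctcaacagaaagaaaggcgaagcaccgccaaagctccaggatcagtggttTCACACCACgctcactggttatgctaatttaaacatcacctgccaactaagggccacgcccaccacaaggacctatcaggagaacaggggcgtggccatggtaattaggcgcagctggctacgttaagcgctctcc
The E-box, the kind of letters that ChREBP and SREBP-1 can bind, began 98 bases before the upstream start. It is found in 7.15% of the 32851 listed promoters, which run to 300 bases with the 50 past the start. TCACNCCAC began 136 bases before the downstream start and is found in 1.24% of promoters. The full carbohydrate response element, a pair of such E-boxes at a fixed spacing, was found in 0 listed promoters, so no share can be read from it. A match describes letters and not a bound site.

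Chromatin was measured in 317 labelled thymic nuclei: 146 thyAD I, 140 thyAD II and 31 Immune, the authors' labels. The copy of the label table used here stopped after 317 complete rows, so any later nuclei were not analysed here. The labels were checked over the marker genes. Levels are given as FPM, fragments per 1000000 of the label's fragments. Adipocyte markers had 1850 FPM in thyAD I, 1604 in thyAD II and 1161 in Immune nuclei, and T-cell markers had 137, 109 and 458. Macrophage markers were lowest in Immune nuclei, with 191, 220 and 162 in the same order. Endothelial markers had 211, 257 and 264, fibroblast markers 163, 182 and 144, and mural markers 172, 200 and 151. The sources used here do not say whether thyAD I and II correspond to Ad I and II of the RNA data.

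Within 1 kb of the upstream Mlxipl start there were 11.5 FPM in thyAD I (exact Poisson interval 6.9 to 18), 7.3 in thyAD II and 7.1 in Immune nuclei. Within 1 kb of the downstream start the values were 25.5 (18.4 to 34.5), 25.1 and 16.0. The downstream start was thus the more open one in each label, and the thyAD I intervals at the 2 starts did not overlap. The most cut region of Mlxipl was neither start. It lay 18000 to 18500 bases past the upstream start, inside the gene, with a cut-site density (cut sites per 1000000 fragments) of 48.6 in thyAD I, 31.5 in thyAD II and 26.7 in Immune nuclei. The downstream start is 17001 bases past the upstream one, so this bin lies at the edge of its 1 kb window. The bins on either side, at 17500 to 18000 and 18500 to 19000, had 16.4 and 36.4 in thyAD I. The bin was thus part of an open stretch that began near the downstream start. A pair of further regions inside the gene, 24500 to 25000 and 28500 to 29000 bases past that start, had cut-site densities of 21.9 and 20.6 in thyAD I. There thyAD II had 14.6 and 12.8, and Immune nuclei had 3.6 and 5.3. Other regions of the gene went the other way. The one 11000 to 11500 bases past that start had 6.07 in thyAD I, 15.5 in thyAD II and 0 in Immune nuclei, and the one at 14000 to 14500 had 1.21, 8.22 and 3.56.

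Over the gene and 2 kb on either side, Mlxipl had 159 FPM in thyAD I (140 to 180), 129 in thyAD II (114 to 145) and 90.8 in Immune nuclei (67.6 to 119). The log2 ratio of thyAD II over thyAD I was -0.30 (-0.55 to -0.06). For Immune over thyAD I it was -0.80 (-1.27 to -0.37). No other gene overlapped the Mlxipl window. Within 1 kb of the start with the most fragments the ratio of thyAD II over thyAD I was -0.026, so the lower value in thyAD II lay in the rest of the window. That rest includes the most cut bin, at the edge of the 1 kb, so the split depends on where the 1 kb ends.

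Thrsp encodes a small nuclear protein known as Spot 14, which is induced by thyroid hormone and sugar and accompanies lipogenesis. The gene lies at chr7:97412933-97417550 on the minus strand (ENSMUSG00000035686). In the thymus it had 21 UMIs in Ad Ia (759 CPM, interval 470 to 1161), 8 in Ad Ib (325 CPM, 141 to 641) and 48 in Ad IIa (119.6 CPM, 88.2 to 158). Ad IIb had 1 (37.0 CPM) and Ad IIc 9 (166 CPM, 75.8 to 315). In epigonadal fat it had 54 in Ad Ia (376 CPM), 54 in Ad Ib (449 CPM), 560 in Ad IIa (453 CPM), 32 in Ad IIb (227 CPM) and 1009 in Ad IIc (1955 CPM, 1836 to 2079). The thymus was highest in Ad Ia and epigonadal fat in Ad IIc, where 471 of 658 nuclei (71.6%) had a UMI at a median depth of 714. Of the unlabelled epigonadal barcodes, 1426 of 3479 (41.0%) had one at a median depth of 794, and thinned to 500 UMIs the shares were 56.5% and 28.5%.

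Between the libraries, Thrsp differed by label. In Ad I it was at 555 CPM in thymus and 409 in epigonadal fat, a log2 ratio of 0.46 (-0.21 to 1.04), which includes 0. Ad Ia alone gave 1.03 (0.21 to 1.76). Ad Ib alone gave -0.39 (-1.75 to 0.62), beside the marker sums of these labels given above, whose part in the result was not tested. With every nucleus weighted equally, the Ad I ratio was -0.37, and in nuclei with at least 1000 UMIs it was 1.45. In Ad IIa the thymus was lower, at -1.91 (-2.38 to -1.49). Unlabelled barcodes were at 155 CPM in thymus and 697 in epigonadal fat, so epigonadal Ad I and Ad IIa lay below the unlabelled level of their library. Thymic Ad I lay above its own, and the thymic Ad IIa interval overlapped it. Among the unlabelled thymic barcodes, Thrsp was at 24.0 CPM where under 20% of UMIs were mitochondrial and at 202 CPM in the rest.

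The 250 bases before the single listed Thrsp start are shown because fragments there were highest in thyAD I (RefSeq, GRCm38.p6, minus strand, chr7:97417551-97417800). Capitals mark the CCAAT box on either strand, found in 37.4% of listed promoters.
Thrsp start: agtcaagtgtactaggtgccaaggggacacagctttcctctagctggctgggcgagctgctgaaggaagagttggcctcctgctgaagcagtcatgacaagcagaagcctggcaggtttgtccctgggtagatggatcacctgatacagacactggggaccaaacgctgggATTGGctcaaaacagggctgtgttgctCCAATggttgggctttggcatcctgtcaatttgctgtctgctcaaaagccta
The matches began 79 and 52 bases before the start, on opposite strands. Within 1 kb of it, thyAD I had 39.5 FPM (30.5 to 50.3), thyAD II 23.3 (17.3 to 30.6) and Immune nuclei 17.8 (8.5 to 32.8). The intervals of thyAD I and thyAD II overlapped at their ends. Farther upstream, 3000 to 3500 bases before the start, thyAD I had a cut-site density of 28.5, thyAD II 16.9 and Immune nuclei 1.8. The Immune value there rests on 1 cut site. In the next 500 bases the values were 18.2, 8.7 and 0, the last from 0 cut sites in 31 nuclei. The neighbouring 500 bases toward the start, 2500 to 3000 bases before it, went the other way, with 5.46 in thyAD I, 14.6 in thyAD II and 5.34 in Immune nuclei. The region with the most cut sites, 1000 to 1500 bases before the start, had 51.0, 42.0 and 30.3 and so was open in each label.

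Over the whole Thrsp window the values were 104, 75.4 and 49.9 FPM. The log2 ratio was -0.47 (-0.79 to -0.15) for thyAD II over thyAD I and -1.04 (-1.70 to -0.48) for Immune over thyAD I. Thrsp was the single one of 7 genes past 2-fold between Immune and thyAD I nuclei, beside 19% of all genes with at least 10 fragments (9.48% lower). Its place there came with fewer adipocyte-marker fragments in Immune nuclei, as given above, and their part in the result was not tested. The window overlaps the gene Gm32945, and fragments there cannot be told apart.

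**Figure D2:**
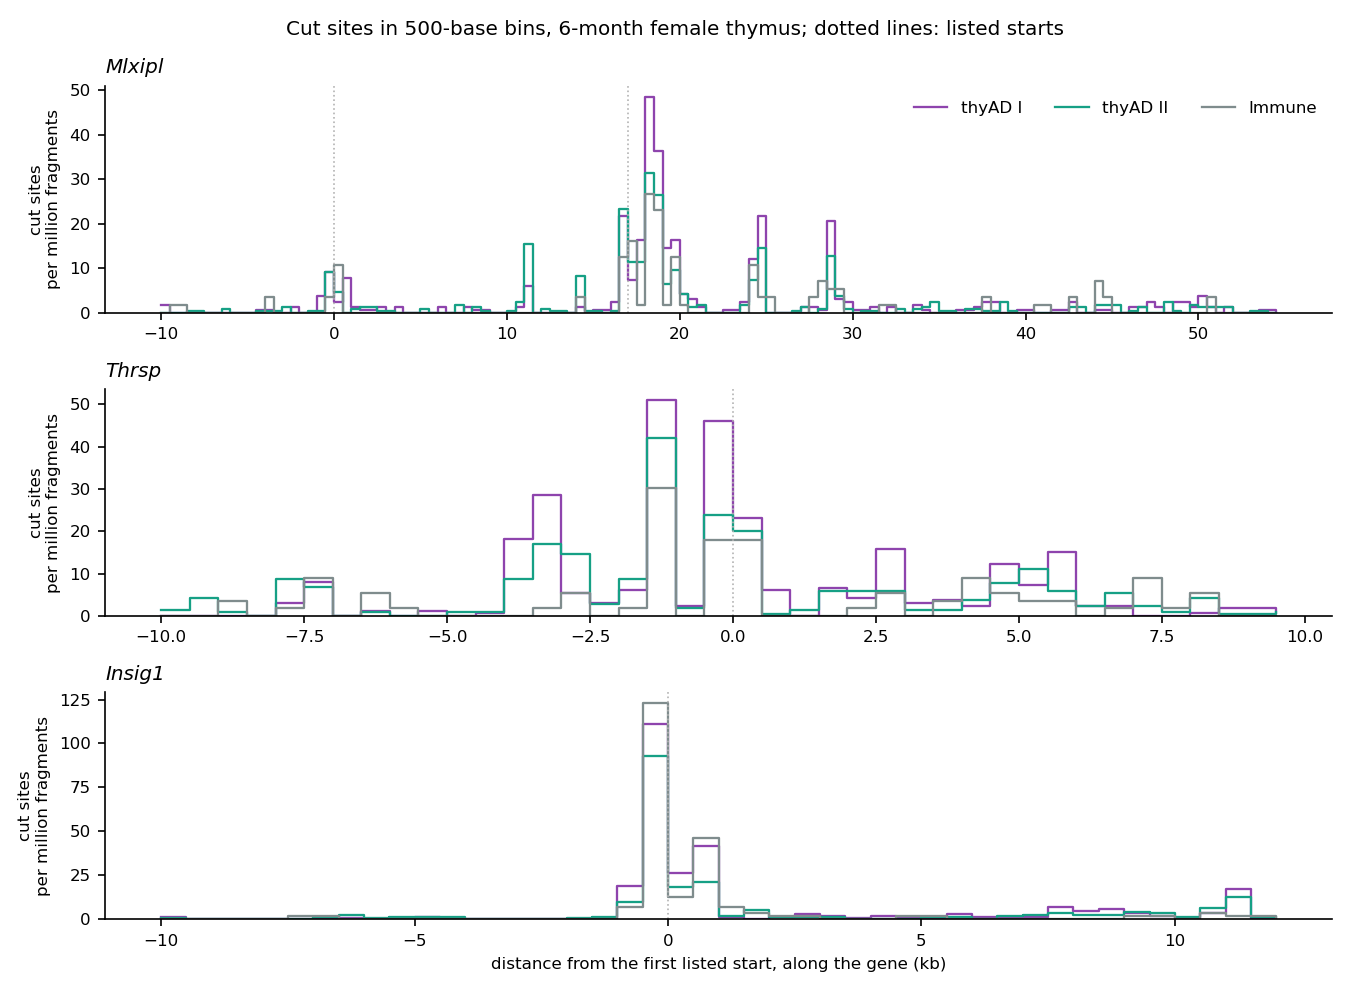
Cut sites per 1000000 fragments (vertical axes) in 500-base bins by distance in kb from the first listed start (horizontal axes) for Mlxipl, Thrsp and Insig1, with thyAD I in purple, thyAD II in green and Immune nuclei in grey. Dotted lines mark listed starts; the tallest Mlxipl bin, with 48.6 in thyAD I, lies beyond its second start, and the Insig1 start is open in every label.

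Srebf1 encodes SREBP-1, known chiefly for fatty acid synthesis, and spans chr11:60199084-60224186 (minus strand; ENSMUSG00000020538). In order from Ad Ia to Ad IIc it had 2, 6, 9, 0 and 0 UMIs in thymus and 10, 18, 45, 4 and 66 in epigonadal fat. Over Ad I this was 153 CPM (66.1 to 302) in thymus and 106 CPM (70.5 to 153) in epigonadal fat, a log2 ratio of 0.59 (-0.82 to 1.70). Among nuclei with at least 1000 UMIs, 9 thymic and 79 epigonadal, it was -1.80. That value rests on 0 thymic UMIs of Srebf1, so no lower level is shown there. Ad IIa was lower than Ad I in both libraries, at 22.4 CPM in thymus and 36.4 CPM in epigonadal fat. The log2 ratio of Ad I over Ad IIa was 2.78 (1.2 to 4.32) and 1.55 (0.81 to 2.26). Epigonadal Ad IIc was at 128 CPM (98.9 to 163), close to its Ad I, and thymic Ad IIc had 0 UMIs, which at the limit of 3 counts allows 55.3 CPM. The log2 ratio of thymic over epigonadal Ad IIc is then -1.21, and the upper end of its exact interval is -0.87.

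Srebf2 encodes SREBP-2, the main activator of cholesterol synthesis, and hosts the microRNA gene Mir33 in an intron. It lies at chr15:82147269-82205379 (plus strand; ENSMUSG00000022463). Thymic Ad I had 0 UMIs, thymic Ad IIa 12 (29.9 CPM, 15.4 to 52.2) and thymic Ad IIc 1. Epigonadal fat had 13 in Ad I (49.3 CPM, 26.2 to 84.3), 23 in Ad IIa (18.6 CPM, 11.8 to 27.9) and 9 in Ad IIc (17.4 CPM, 8.0 to 33.1). The limit of 57.4 CPM in thymic Ad I exceeds the epigonadal level, so a difference was not detectable at this depth. In Ad IIa the log2 ratio of thymus over epigonadal fat was 0.71 (-0.46 to 1.75). Unlabelled barcodes were at 55.8 CPM (49.2 to 63.1) in thymus and 40.5 CPM (34.3 to 47.4) in epigonadal fat. The epigonadal Ad IIa and Ad IIc intervals lay below that of their unlabelled barcodes, and the Ad I interval there overlapped it.

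The mix of the 2 SREBP genes was compared as the share of Srebf1 in the UMIs of both. It was 8 of 8 UMIs in thymic Ad I (exact Clopper-Pearson interval 63.1 to 100%) and 68.3% (51.9 to 81.9%) in epigonadal Ad I. In Ad IIa it was 42.9% (21.8 to 66.0%) of 21 UMIs in thymus and 66.2% (53.7 to 77.2%) of 68 in epigonadal fat. Epigonadal Ad IIc had 88.0% (78.4 to 94.4%), above its unlabelled barcodes at 56.9% (51.6 to 62.1%). These intervals overlapped between the libraries within Ad I and within Ad IIa.

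In chromatin, Srebf1 had 199.8 FPM in thyAD I, 196.8 in thyAD II and 195.9 in Immune nuclei, and the ratio of thyAD II over thyAD I was -0.02 (-0.23 to 0.19) on the log2 scale. Of its 3 listed starts, the third, 12110 bases downstream of the first, was the most open, with 48.6, 40.2 and 57.0 FPM within 1 kb in the same order of labels. The first had 19.4, 17.8 and 17.8 FPM. A region 2000 to 2500 bases before the first listed Srebf1 start had a cut-site density of 44.3 in thyAD I, 33.8 in thyAD II and 17.8 in Immune nuclei, while the gene windows differed by less than their intervals. That start, at 60222581, lies inside the gene span given above, so the region is just past the upstream end of that span. Srebf2 had 95.9, 77.2 and 121 FPM over its window, with a log2 ratio of thyAD II over thyAD I of -0.31 (-0.64 to 0.01). The Srebf1 window overlaps the genes Rai1, Mir6921 and Mir6922, and the Srebf2 window the genes Mir33 and Shisa8.

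Insig1, itself a target of SREBP, lies at chr5:28071412-28078662 (plus strand; ENSMUSG00000045294). It had 3 UMIs in thymic Ad I (57.4 CPM, 11.8 to 168) and 14 in epigonadal Ad I (53.1 CPM, 29.0 to 89.0). Ad IIa had 5 in thymus (12.5 CPM, 4.0 to 29.1) and 51 in epigonadal fat (41.2 CPM, 30.7 to 54.2), a log2 ratio of -1.60 (-3.41 to -0.41). Epigonadal Ad IIc was the highest label at 153 CPM (121 to 191), from 79 UMIs, and was 1.49 (0.70 to 2.46) above epigonadal Ad I on the log2 scale. Thymic Ad IIc had 2 UMIs.

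Insig2, which is not driven by SREBP in the same way, lies at chr1:121304353-121332662 (minus strand; ENSMUSG00000003721). The intervals of all its labels overlapped, in both libraries. Ad IIa was at 39.9 CPM (22.8 to 64.7) in thymus and 36.4 CPM (26.5 to 48.7) in epigonadal fat, a log2 ratio of 0.16 (-0.79 to 0.98). Ad I had 3 UMIs against 7, a ratio of 1.24 (-1.47 to 3.25). Epigonadal Ad IIc was at 50.4 CPM (32.9 to 73.8). The share of Insig1 in the UMIs of both INSIG genes was 23.8% (8.2 to 47.2%) in thymic and 53.1% (42.7 to 63.4%) in epigonadal Ad IIa, and 75.2% (65.9 to 83.1%) in epigonadal Ad IIc. The 2 Ad IIa intervals overlapped, and that of epigonadal Ad IIc lay above both.

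The Insig1 start was among the most open in the thymic adipocyte nuclei. Within 1 kb of it there were 99.6 FPM in thyAD I (84.9 to 116), 71.7 in thyAD II (60.9 to 83.8) and 94.4 in Immune nuclei (70.7 to 124). Its sum over thyAD I and thyAD II was at percentile 99.7 of the best starts of 27025 genes, and the other 6 genes were between percentiles 81.1 and 93.8. Its 250 bases are shown for that reason, beside those of the first 2 of 3 Insig2 starts, which differ in accessibility (RefSeq, GRCm38.p6). They lie at chr5:28071162-28071411 (plus strand), chr1:121332590-121332839 and chr1:121328025-121328274 (minus strand). Capitals mark the E-box CACGTG and the CCAAT box on either strand.
Insig1 start: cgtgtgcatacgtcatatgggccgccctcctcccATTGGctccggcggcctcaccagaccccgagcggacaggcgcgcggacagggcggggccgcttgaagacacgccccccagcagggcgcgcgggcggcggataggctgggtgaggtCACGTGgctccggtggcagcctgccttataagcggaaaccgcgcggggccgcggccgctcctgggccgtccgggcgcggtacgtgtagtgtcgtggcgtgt
Insig2 first start: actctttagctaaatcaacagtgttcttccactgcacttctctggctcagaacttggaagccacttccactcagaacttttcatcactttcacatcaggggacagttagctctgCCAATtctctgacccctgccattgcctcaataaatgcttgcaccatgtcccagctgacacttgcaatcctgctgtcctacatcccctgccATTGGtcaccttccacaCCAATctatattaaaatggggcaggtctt
Insig2 second start: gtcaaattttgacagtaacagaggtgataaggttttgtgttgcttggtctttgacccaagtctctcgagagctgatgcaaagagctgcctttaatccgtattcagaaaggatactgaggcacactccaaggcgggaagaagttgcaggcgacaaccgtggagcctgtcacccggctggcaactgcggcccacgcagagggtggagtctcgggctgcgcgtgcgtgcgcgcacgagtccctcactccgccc
The Insig1 E-box began 101 bases before the start. Over the 300 bases of the table, which add 50 after the start, Insig1 had 38 CG pairs, against a median of 7 over all listed promoters. The first Insig2 start had 0 and the second 17. Within 1 kb of the first Insig2 start there were 4.9 FPM in thyAD I (2.1 to 9.6), 2.3 in thyAD II and 8.9 in Immune nuclei. The second, 4565 bases downstream of the first, had 35.8 (27.3 to 46.2), 34.7 and 26.7. The third, which is not shown, lies 4911 bases downstream of the first, so its window overlaps that of the second, and had 36.4, 35.2 and 28.5.

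Over the whole windows, Insig1 had 118 FPM in thyAD I, 85.4 in thyAD II and 103 in Immune nuclei. Its ratio for thyAD II over thyAD I was -0.47 (-0.77 to -0.17) on the log2 scale. Of the clusters that make up thyAD I, cluster 1 was lower than cluster 3 by a log2 ratio of -0.71 (-1.13 to -0.28). Beyond the end of Insig1, 11000 to 11500 bases past its start, thyAD I had a cut-site density of 17.0, thyAD II 12.3 and Immune nuclei 1.8. The Immune value there rests on 1 cut site. Insig2 had 52.8, 58.0 and 69.5 FPM over its window, and its interval for thyAD II over thyAD I included 0. The Insig1 window overlaps the gene Gm35223.

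Nr1h3 encodes LXR-alpha, the oxysterol receptor that induces Srebf1 and the sterol exporters, and spans chr2:91184061-91202829 (minus strand; ENSMUSG00000002108). It had 3 UMIs in thymic Ad I (57.4 CPM, 11.8 to 168) and 6 in epigonadal Ad I (22.7 CPM, 8.3 to 49.5). Ad IIa had 3 in thymus (7.5 CPM, 1.5 to 21.8) and 43 in epigonadal fat (34.8 CPM, 25.2 to 46.8), a log2 ratio of -2.01 (-4.55 to -0.57). Epigonadal Ad IIc was at 103 CPM (76.9 to 134) and thymic Ad IIc had 1 UMI. The gene was thus highest in epigonadal Ad IIc, as were Thrsp and Insig1. Over its window it had 81.4, 74.4 and 81.9 FPM in thyAD I, thyAD II and Immune nuclei. Within 1 kb of its first listed start the values were 34.6 (26.2 to 44.8), 25.1 (18.9 to 32.7) and 17.8 (8.5 to 32.8), with overlapping intervals and 10 fragments in Immune nuclei. The window overlaps the genes Madd, Gm23390 and Acp2.

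**Figure D3:**
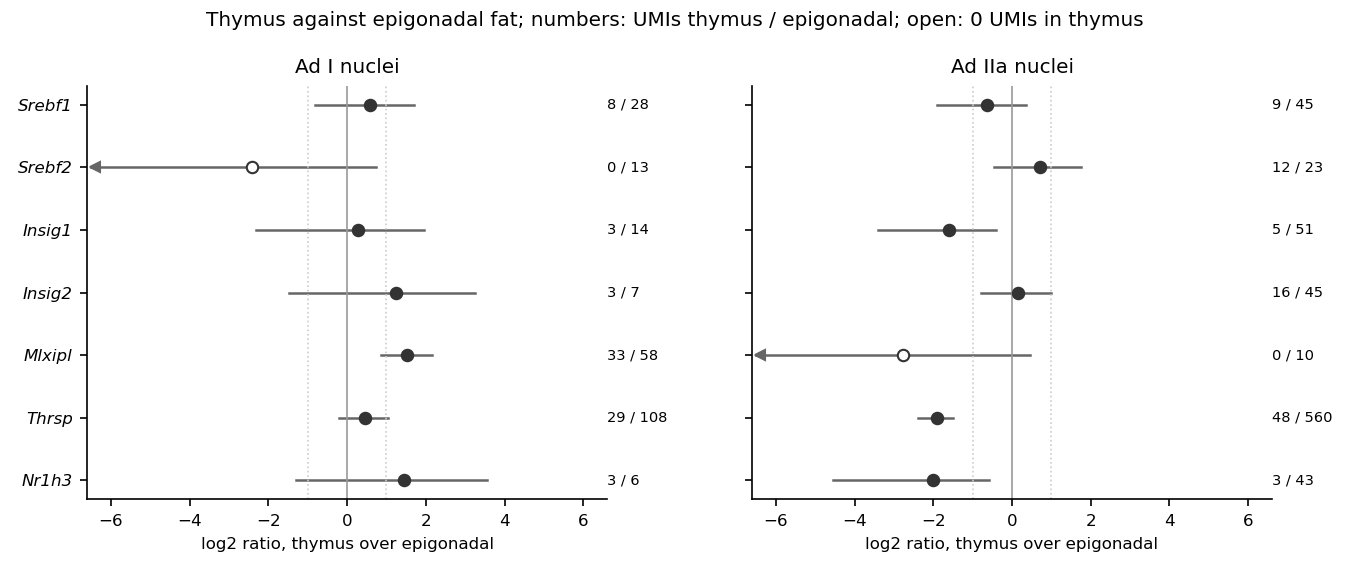
Log2 ratio of thymus over epigonadal fat for the 7 genes in Ad I (left) and Ad IIa nuclei (right), with exact binomial 95% intervals as lines, the UMIs of each library at the right and open points where the thymus had 0. Dotted lines mark 2-fold; Mlxipl lies at 1.53 in Ad I, and Thrsp, Insig1 and Nr1h3 lie below -1 in Ad IIa.

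As a count, a gene passed when it had at least 10 UMIs over both libraries and a ratio of at least 2-fold. In Ad I, 6 of the 7 genes had enough UMIs and 3 passed, 2 higher in thymus (Mlxipl, Insig2) and 1 lower (Srebf2). Among all 5345 genes tested there, 32.2% passed, 15.2% higher and 17% lower. The Srebf2 value rests on a count of 0 and the Insig2 interval includes 0, so of the 3 the Mlxipl interval alone excluded 0. In Ad Ia alone 2 of 3 tested genes passed (Mlxipl, Thrsp) beside 34.7% of all genes, and in Ad Ib alone 1 of 3 (Mlxipl) beside 37.5%. In Ad IIa all 7 were tested and 4 passed, each lower in thymus: Mlxipl, Thrsp, Insig1 and Nr1h3. With 5 UMIs added to each sum Thrsp alone passed, Insig1 being at -0.86 and Nr1h3 at -0.96, and with a minimum of 50 UMIs Thrsp and Insig1 passed. The share of all 9774 genes was 21.7% in either direction and 16.2% lower. Mlxipl had 0 against 10 UMIs there, and its limit of 3 counts gives a log2 ratio of -0.11.

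The lower Ad IIa values came with a lower sum of adipocyte markers in thymic Ad IIa, 2837 against 7327 CPM, and with more endothelial marker RNA. Unlabelled barcodes were also lower in thymus for Thrsp and Nr1h3, with 11.7 CPM of Nr1h3 against 47.1. Insig1 was at 40.2 CPM against 57.7 there, and Mlxipl went the other way, with 53.2 against 22.8. The part of these in the result was not tested. In Ad IIc, 5 of 7 genes were at least 2-fold lower in thymus, beside 64.7% of all genes past 2-fold and 32% lower, and the marker content of that label differed as given above. The 5 were Srebf1, Mlxipl, Thrsp, Insig1 and Nr1h3. Srebf1 and Mlxipl had 0 thymic UMIs there. At the limit of 3 counts Srebf1 is at -1.21 and Mlxipl at 0.83 on the log2 scale, so no lower level is shown for Mlxipl. Nr1h3 had 1 thymic UMI against 53, and its interval (-7.81 to 0.06) includes 0. In chromatin, 0 of 7 genes passed between thyAD II and thyAD I, beside 7.45% of all genes.

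Within each library the labels were set side by side in the same way. In thymus, 5 genes could be tested between Ad I and Ad IIa and 4 passed, beside 48.5% of all genes: Srebf1, Mlxipl and Thrsp were higher in Ad I. The fourth, Srebf2, had 0 UMIs in Ad I, and at the limit of 3 counts its ratio is 0.94, so no lower level is shown. In epigonadal fat 3 of 7 passed between the same labels, Srebf1, Srebf2 (1.43, 0.30 to 2.45) and Mlxipl, all higher in Ad I, beside 37.3% of all genes (17.5% higher). Epigonadal Ad IIc against Ad I gave 3 higher (Thrsp, Insig1, Nr1h3) and 2 lower (Srebf2, Mlxipl), beside 61.8% of all genes (24.3% higher, 37.5% lower). There Thrsp was at 2.25 (1.97 to 2.56), Nr1h3 at 2.07 (0.96 to 3.68), Srebf2 at -1.48 (-2.91 to -0.16) and Mlxipl at -2.79 (-3.72 to -2.01) on the log2 scale. Ribosomal-protein RNA summed to 84441 CPM in epigonadal Ad IIc and 20387 CPM in Ad I, and 3 nuclear-retained RNAs (Malat1, Neat1, Meg3) summed to 1829 and 42411 CPM. The part of these in the result was not tested.

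**Figure D4:**
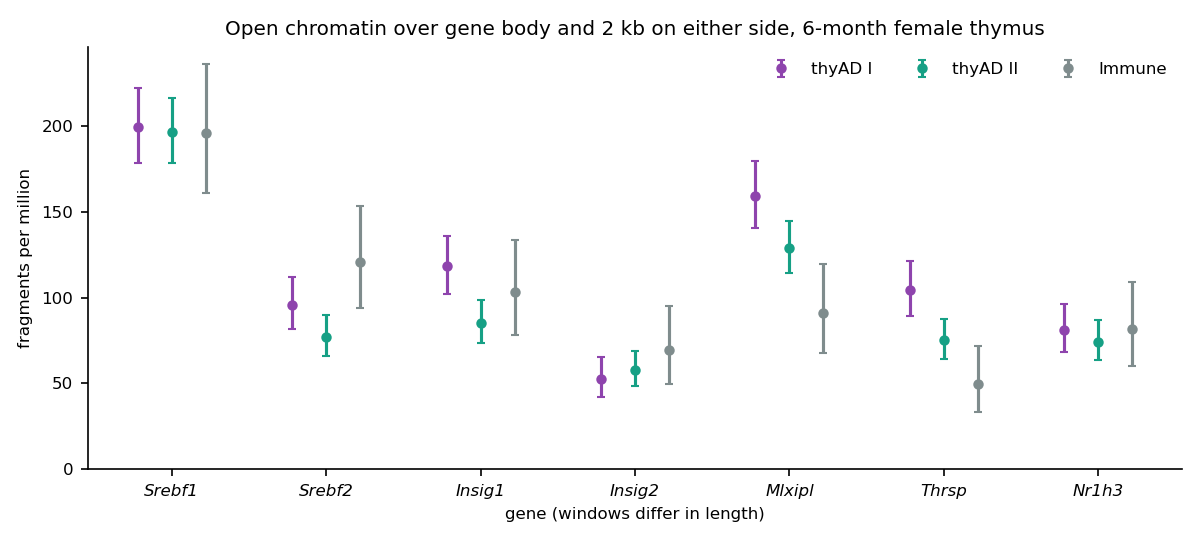
Fragments per 1000000 (FPM, vertical axis, from 0) over each gene and 2 kb on either side in thyAD I, thyAD II and Immune nuclei of the 6-month female thymus, with exact Poisson 95% intervals. The 3 labels lie together for Srebf1, and Thrsp steps down from 104 to 75.4 to 49.9.

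The wider pathways were followed through 6 lists, whose counts stand beside the shares of all genes past 2-fold. These were 15.2% higher and 17% lower in Ad I. In Ad IIa they were 21.7% in either direction and 16.2% lower, so few genes of any kind were higher there. The SREBP processing list holds 15 genes, of which 8 could be tested in Ad I: 0 were at least 2-fold higher and 1 lower in thymus, with a median log2 ratio of -0.06, beside 0.08 over all genes. In Ad IIa 14 were tested, 0 higher and 1 lower (Lpin1, -1.98), with a median of 0.04 beside -0.02 over all genes. Scap, which carries SREBP to the Golgi, had 0 UMIs in thymic Ad I against 9 in epigonadal Ad I. Epigonadal Ad I held 263848 nuclear-encoded UMIs against 52241, so at the limit of 3 counts no lower level of Scap is shown. The proteases Mbtps1 and Mbtps2 had 3 against 15 and 2 against 12, and neither passed 2-fold once scaled to these totals. The 1 called lower in Ad I was Pgrmc1 (0 against 10), for which the limit of 3 counts gives 0.60, so no lower level is shown. The ubiquitin ligase Syvn1 was at -0.83 (-6.77 to 1.37). Lpin1, a phosphatidate phosphatase, was at 0.66 (0.10 to 1.17).

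For cholesterol synthesis and uptake, 4 of 23 genes could be tested in Ad I, 1 higher and 2 lower, 1 of these from a count of 0 that shows no lower level, with a median of -0.43. Hmgcs1, an early enzyme of the pathway, was at 229.7 CPM in thymus and 98.5 CPM in epigonadal fat, a log2 ratio of 1.25 (0.10 to 2.26). Idi1, which makes an isoprenoid unit, was at -1.12 (-4.54 to 0.57). In Ad IIa, 14 genes were tested, 0 higher and 6 lower, with a median of -0.50. Hmgcs1 was at -1.56 (-2.81 to -0.64) and Idi1 at -2.68 (-6.08 to -1.06) there.

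Lipogenic enzymes were split in Ad I. Of 17 genes 13 were tested, 4 higher (Elovl5, Elovl6, Acss2, Gpam) and 4 lower (Fasn, Scd1, Scd2, Slc25a1), beside 15.2% and 17% of all genes, with a median of 0.55. Elovl6, which elongates palmitate, had 11 UMIs against 5, a log2 ratio of 3.40 (1.83 to 5.35), and Elovl5 was at 2.26 (1.21 to 3.29). Fasn, the fatty acid synthase, had 1 UMI against 62, at -3.04 (-8.94 to -1.09). Scd1, the stearoyl-CoA desaturase, was at 498 CPM in thymus and 1092 in epigonadal fat, at -1.11 (-1.77 to -0.55). Slc25a1, the citrate carrier, had 0 UMIs against 13 and Scd2, another desaturase, 0 against 10. At the limit of 3 counts these are at 0.22 and 0.60, so a lower level is shown for neither. In Ad IIa, 15 were tested, 0 higher and 9 lower, beside 16.2% of all genes lower, with a median of -1.64. Among these Scd1 was at -3.95 (-4.54 to -3.45) and Fasn at -2.92 (-3.95 to -2.15). Adipocyte markers were at 2837 CPM in thymic and 7327 CPM in epigonadal Ad IIa and endothelial markers at 8554 and 6256, and their part in the lower list values was not tested.

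Partners of ChREBP and sugar-responsive genes had the highest median of the 6 lists in Ad I, 1.04, from 7 of 12 genes, 4 higher (Ppp1r3b, Slc2a4, Gpd1, Mlxip) and 1 lower (Mxd4). In Ad Ia alone the order differed. There 34.7% of all genes passed 2-fold, with a median of 0.05 over all genes. Of the ChREBP list 4 genes were tested, 1 higher and 1 lower, with a median of 0.48. Higher medians were those of cholesterol synthesis (0.76, from 2 genes), lipogenic enzymes (0.74, from 10), sterol storage (0.73, from 4) and SREBP processing (0.61, from 5). Ppp1r3b, which targets a phosphatase to glycogen, had 8 UMIs against 2, a log2 ratio of 4.10 (2.01 to 7.61). Like Elovl6 above, it reached the minimum of 10 UMIs through its thymic UMIs, so a high ratio follows in part from that minimum. It is counted among the 4 higher genes and in the median, so the rank of the list rests in part on the same minimum. Slc2a4, the insulin-regulated glucose transporter, was at 2.0 (0.31 to 3.57). Mlxip, the related factor MondoA, was at 1.04 (-0.88 to 2.54), the same value as the list median, with an interval that includes 0. Txnip, a well-known glucose-induced gene, was at 0.26 (-0.55 to 0.95), and Mxd4 at -1.22 (-4.63 to 0.46). Mlx, the ChREBP partner, had 0 UMIs against 6, and Mid1ip1, the Thrsp relative, also 0 against 6. At the limit of 3 counts a lower level is shown for neither. In Ad IIa, 9 were tested, 0 higher and 4 lower, with a median of -0.65. Of the 4, G6pc3 and Slc2a4 had 0 thymic UMIs and are at -0.49 and -1.18 at the limit of 3 counts. Mlx had 1 UMI against 12 there, Mid1ip1 was at -1.99 (-5.39 to -0.30), and Mlxip was at 0.60 (0.09 to 1.08).

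Of the LXR list, 10 of 15 genes were tested in Ad I, 0 higher and 1 lower, with a median of -0.40. Abca1, the cholesterol exporter, was at 383 CPM in thymus and 580 in epigonadal fat, a log2 ratio of -0.57 (-1.35 to 0.08). Its relative Abcg1, the 1 called lower, had 0 UMIs against 15, and at the limit of 3 counts it is at 0.01, so no lower level is shown. The partner Rxra had 2 against 23, under 2-fold once scaled to the UMI totals of Ad I. The phospholipid transfer protein Pltp was at 0.62 (-2.02 to 2.38) and the phospholipid-remodelling enzyme Lpcat3 at 0.68 (-1.01 to 1.97). Nr1h2, which encodes LXR-beta, had 0 against 6, and at the limit of 3 counts no lower level is shown. In Ad IIa, 13 were tested, 0 higher and 3 lower, with a median of -0.23. Abca1 was at -0.50 (-0.86 to -0.17) there, Nr1h2 at 0.14 (-1.19 to 1.23) and Rxra at 0.12 (-0.77 to 0.89).

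Of sterol storage and transport genes, 9 of 15 were tested in Ad I, 2 higher and 3 lower, with a median of -0.27. The 3 called lower were Soat1, Osbp and Npc2. The 2 higher were Scarb1, the HDL receptor, at 1.18 (-0.55 to 2.58) and the lysosomal lipase Lipa at 1.06 (-1.63 to 2.98). Soat1, which esterifies cholesterol, had 0 UMIs against 11 and Osbp 0 against 10, and at the limit of 3 counts they are at 0.46 and 0.60, so a lower level is shown for neither. In Ad IIa, 10 were tested, 1 higher and 1 lower, with a median of 0.01. Where a side at 0 is set to its limit of 3 counts, the Ad I medians become 0.10 for SREBP processing, 0.14 for cholesterol synthesis, 0.60 for lipogenic enzymes, -0.11 for LXR and 0.46 for sterol storage. The median of all genes is then 0.18, and that of the ChREBP list stays at 1.04. The medians for SREBP processing, cholesterol synthesis and sterol storage thus change sign with the treatment of counts of 0.

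**Figure D5:**
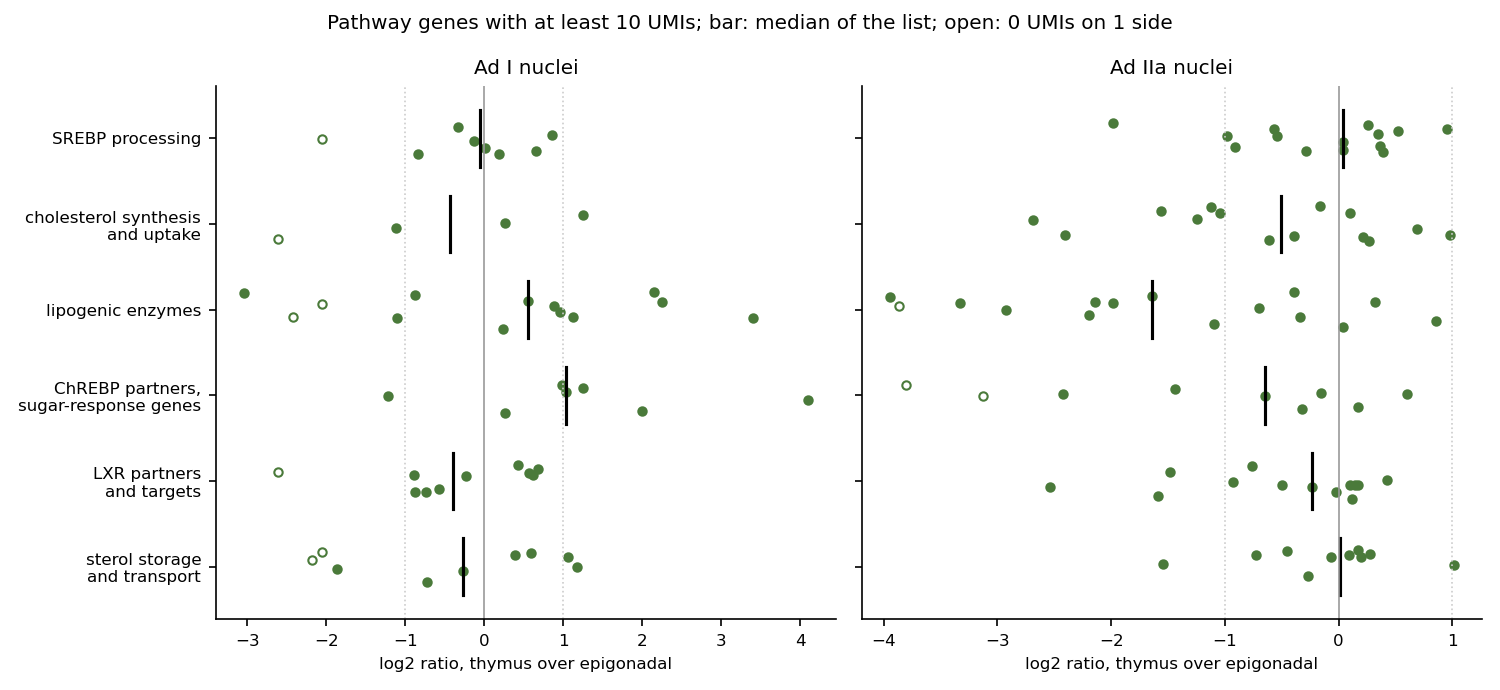
Log2 ratio of thymus over epigonadal fat in Ad I (left) and Ad IIa (right) for each gene of the 6 pathway lists with at least 10 UMIs, with black bars at the list medians and open points where 1 side had 0. The horizontal scales differ between the panels; lipogenic enzymes spread from -3.04 to 3.40 in Ad I and have a median of -1.64 in Ad IIa.

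In chromatin, 0 genes of 5 lists and 1 of the sterol storage list (Soat2, with 6 fragments against 11) passed 2-fold between thyAD II and thyAD I, beside 7.45% of all genes. The medians were 0.10 for SREBP processing, -0.11 for cholesterol synthesis, -0.10 for lipogenic enzymes, -0.33 for the ChREBP list, -0.07 for LXR and -0.06 for sterol storage, beside 0.02 for all genes. Ppp1r3b was lowest of the ChREBP list, with 89.3 FPM in thyAD I against 55.7 in thyAD II and a ratio of -0.68 (-1.04 to -0.32). Mlxip was at -0.47 (-0.79 to -0.15). Acacb, a mitochondrial acetyl-CoA carboxylase, was at -0.51 (-0.71 to -0.32) and Scd1 at -0.48 (-0.83 to -0.14). Fasn was at -0.01 (-0.23 to 0.22). Mvk, of the mevalonate pathway, was at -0.58 (-1.0 to -0.17).

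Epigonadal Ad IIc, where Thrsp, Insig1 and Nr1h3 were highest, was followed through the same lists against epigonadal Ad I. Among all genes 24.3% were higher and 37.5% lower there, with a median of -0.40. Cholesterol synthesis had 7 of 15 tested genes higher and 2 lower, with a median of 0.98. Hmgcs1 was at 1.61 (1.03 to 2.29). Lipogenic enzymes had 7 of 15 higher and 4 lower, with a median of 0.25, and with Fasn at 2.47 (2.11 to 2.88) and Scd1 at 2.30 (2.13 to 2.48). The LXR list had 2 of 14 higher and 7 lower, with Abca1 at -1.70 (-2.09 to -1.32) and Abcg1 at -2.75 (-4.92 to -1.22). Sterol storage had 1 of 9 higher and 5 lower (median -1.40), SREBP processing 1 of 13 higher and 4 lower (median -0.26), and the ChREBP list 2 of 8 higher and 1 lower (median 0.76). Hmgcs1, Fasn and Scd1 were thus higher and both sterol exporters lower than in Ad I of the same library. Adipocyte markers (26675 against 9433 CPM), ribosomal-protein RNA and the nuclear-retained RNAs differed between the same labels, as given above, and their part in the result was not tested.

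For each of the 7 genes, the genes with the most similar profile were found by Pearson's r over 10 sums (5 labels in 2 libraries), among 7039 genes with at least 50 UMIs, and are named where r was at least 0.9. The sums share libraries and depth and are not independent, so r is a description. Thrsp was nearest to Cdkn2c (0.99), a cell-cycle inhibitor, Hp (0.99), which encodes haptoglobin, and Cib2 (0.98). Insig1 was nearest to Cdkn2c (0.98), G0s2 (0.97), an inhibitor of the lipase ATGL, and Cib2 (0.97). Nr1h3 was nearest to Thrsp (0.96), the acyltransferase Agpat2 (0.96) and Cdkn2c (0.95). These 3 genes thus shared Cdkn2c as a neighbour. Mlxipl was nearest to Ppp1r9a, 4933406I18Rik and Dpyd, each at 0.99. Srebf1 was nearest to Nudt7 (0.98), H6pd (0.94) and Mtch2 (0.94), and Srebf2 to Fstl1 (0.96), Sbf1 (0.95) and Cars (0.93). Insig2 had 1 neighbour past 0.9, Wipi2 (0.90). The profiles take a sum of 0 UMIs as 0 CPM even where few UMIs were summed. Srebf2 had 0 UMIs in thymic Ad Ia, Ad Ib and Ad IIb, where the limit of 3 counts is 108, 122 and 111 CPM. Its highest labelled level was 58.2 CPM, in epigonadal Ad Ib. The r values of Srebf2, and of other genes with such sums, thus rest in part on counts of 0.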

How the data were processed

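Counts: the authors deposited a matrix of UMI counts for every barcode from Cell Ranger 7.2.0, per the file headers, and chromatin fragments, made with Cell Ranger ARC 2.0.2 on mm10 per the submitters' processing notes. Labels, doublet classes and the percentage of mitochondrial UMIs (percent.mt, with values in percent) come from the authors' deposited Seurat tables. No further filter was put on nuclei.

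UMIs were summed per label and divided by their nuclear-encoded total. Each group is 1 library, so no p-value was computed. Ratios add 0.5 to each count; a gene passed at 10 counts over both sides and 2-fold. Scripts (Python 3.11.15, numpy 2.4.6, scipy 1.17.1, R 4.3.3 with edgeR 4.0.16 for TMM factors) were tested on simulated data. Fragments were counted over the gene and 2 kb on either side.

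The genes and lists were chosen with earlier results of these data known. Named genes are the 7, 14 fixed by role, and the 2 highest and 2 lowest of each list in Ad I and the 1 highest and 1 lowest in chromatin among genes with at least 50 fragments; some of these are not reported here. Others, such as Acss2, Gpam, Gpd1, Npc2, G6pc3, Scd2 and Soat2, were named after their values were seen. Alternatives covered scaling, weighting, free RNA, depth, pseudocount, minimum count and window. Those without Malat1, Gm42418 and AY036118, at the single best start, or split at 20% mitochondrial UMIs were chosen after seeing the data. The female RNA counts were not used here.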

Additional observations from a re-analysis of the deposited data

Results flagged for a closer look

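Thrsp stood in opposite order in the 2 RNA libraries for 2 contrasts, each with intervals that exclude 0 on either side. For Ad IIc over Ad I the log2 ratio was -1.69 (-3.01 to -0.63) in thymus, from 9 and 29 UMIs, and 2.25 (1.97 to 2.56) in epigonadal fat, from 1009 and 108. Thymic Ad IIc held 7501 CPM of endothelial markers and epigonadal Ad IIc 384, and the part of this in the result was not tested. For Ad I over unlabelled barcodes it was 1.86 (1.25 to 2.37) in thymus and -0.76 (-1.06 to -0.49) in epigonadal fat, where unlabelled barcodes held 9531 CPM of adipocyte markers against 1960 in thymus. The difference between the libraries was not tested, since each is 1 library.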

How the results depend on the processing

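No paired analysis was possible because each group is 1 library. The number of the 7 genes past 2-fold was 3 in Ad I and 4 in Ad IIa. In Ad I it was 1 with a minimum of 50 UMIs and 1 for Ad Ib alone, in both cases Mlxipl. With TMM or median-of-ratios scaling Insig2 no longer passed (0.90 under each), which left 2, beside 31.8% of all genes under each. Among nuclei with at least 1000 UMIs 3 of the genes could be tested and 2 passed, Srebf1 and Thrsp in place of Mlxipl, Insig2 and Srebf2, beside 40.9% of all genes. With 5 UMIs added, Insig1 passed in place of Srebf2, beside 40.4% of all genes. Insig1 had 3 UMIs against 14, and its ratio with 0.5 UMI added was 0.29 (-2.33 to 1.96). With no minimum Nr1h3 passed beside the main 3. In Ad IIa it was 1 with 5 UMIs added to each sum and 2 with a minimum of 50 UMIs. Among Ad IIa nuclei with at least 1000 UMIs, 6 of the genes could be tested and 3 passed, beside 21.8% of all genes. Mlxipl, at -2.64 there, had too few UMIs to be tested. With 5 UMIs added, the log2 ratio changed sign for Srebf2 in Ad I (0.49) and Mlxipl in Ad IIa (0.039), both from 0 thymic UMIs. The share of all genes past 2-fold was 67.8% in Ad I with no minimum and 19.8% with a minimum of 50, against 32.2%. In Ad IIa it was 65.6%, 13.3%, and 12.5% with 5 UMIs added, against 21.7%. In chromatin it was 24.0% with no minimum, 1.18% with 50 and 12.7% for cut sites, against 7.45%. A minimum of 3000 fragments removed no nuclei. Srebf1 in Ad I was at -1.80 among the 9 thymic and 79 epigonadal nuclei with at least 1000 UMIs. That value rests on 0 thymic UMIs of Srebf1, so no lower level is shown there. The cause of these shifts was not tested beyond what the settings themselves change. Depth limits all genes but Mlxipl and Thrsp in thymic Ad I, where the others had 0 to 8 UMIs.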
